A study of Arabidopsis thaliana with 4 samples.

Results

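The contacts described here are those made within chromosome 5 of Arabidopsis thaliana. They were taken as pairs of 100 kb bins that both lie on chromosome 5 and are at least 5 bins (0.5 Mb) apart. There were 35245 such pairs, of 711028 pairs of different bins over 5 chromosomes. After bins without signal in either tissue were left out, 33692 pairs of 264 bins remained, of 270 bins on the chromosome. They held 1295985 contacts in endosperm and 911505 in leaf, with a median of 31 contacts per pair in endosperm and 23 in leaf. The rule that picks the members uses position only and no contact value, though it was set with earlier results of these data known.

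The study mapped chromatin contacts by in situ Hi-C in 2 tissues of wild-type Columbia-0 plants, with 2 replicates per tissue. Endosperm came from F1 seeds of a cross of wild-type Columbia with itself, and leaves came from 4-week-old wild-type Columbia plants. The sample titles name no mutation, transgene or treatment in either tissue. The deposited maps pool the replicates, so each tissue is 1 matrix and there is no replicate spread to set a difference against. The sources used here give neither the age of the seeds nor the purity of the endosperm, and contact maps hold no expression values by which the tissues could be checked.

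In Hi-C, chromatin is crosslinked, cut and religated, so a sequenced junction records DNA stretches that were neighbours in the nucleus. Contact falls with distance along a chromosome, and how steeply it falls depends on how the fibre is folded. In leaf nuclei of Arabidopsis the gene-poor, repeat-rich pericentromeres gather in compact chromocentres at the nuclear rim, while gene-rich arms reach out from them and telomeres lie near the nucleolus. Endosperm, the nutritive tissue of the seed, carries more maternal than paternal genome copies, and its chromocentres are known to look less compact. The maps do not tell the copies of a chromosome apart, so a contact between copies counts as one within the chromosome.

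The north arm spans 0 to 10.1 Mb of chromosome 5 (TAIR10), the pericentromere 10.1 to 14.3 Mb and the south arm 14.3 to 27 Mb. Protein-coding genes cover 66.6% of the north arm, 12.0% of the pericentromere and 61.4% of the south arm. The same 4.2 Mb pericentromere was found when it was taken as the run of bins around the lowest gene cover on the chromosome. Of its 42 bins, 39 were used. The bin at 11.7 to 11.8 Mb held 17.1 times the median bin count in endosperm and 23.1 times in leaf, and the bin at 11.1 to 11.2 Mb held 1.97 and 2.28 times the median.

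Contact is given on 2 scales. The contact level is the mean balanced contact divided by the tissue's mean contact between chromosomes. Distance-normalised contact is a pair's contact over the mean of all chromosome 5 pairs at the same distance, so that 1 is the chromosome's own average. Differences are log2 of endosperm over leaf unless stated otherwise. The range in brackets after a difference is its 95% counting interval, which covers counting error only. On average the pairs had a contact level of 1.65 in endosperm and 1.53 in leaf (a difference of 0.11), so contacts within the chromosome exceeded those between chromosomes in both tissues.

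Along both arms, contact was higher in endosperm at short distances, and the excess shrank with distance. For pairs 0.5 to 1 Mb apart the north arm had a contact level of 4.32 in endosperm and 3.07 in leaf, a difference of 0.49 (0.47 to 0.51). The south arm had 4.38 in endosperm and 3.11 in leaf, also a difference of 0.49 (0.47 to 0.51). The pericentromere did not share this. Its level over the same distances was 4.50 in endosperm and 4.78 in leaf, a difference of -0.09 (-0.12 to -0.05), and of -0.01 from counts without balancing. In leaf the pericentromere therefore stood well above the arms at this range, whereas in endosperm the 3 regions lay close together.

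**Figure D1:**
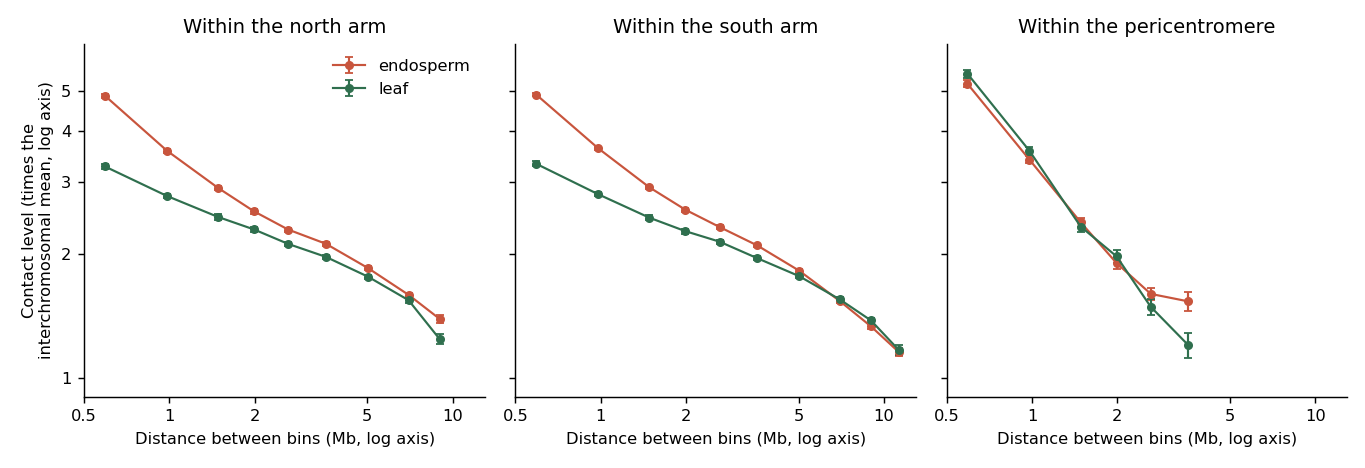
Contact level (times the tissue's interchromosomal mean, log axis) against the distance between bins (Mb, log axis) within the north arm, the south arm and the pericentromere of chromosome 5, as means over bands of distance with 95% counting intervals. In the shortest band, 0.5 to 0.7 Mb, the arms stand at 4.86 and 4.90 in endosperm and at 3.27 and 3.32 in leaf, and the curves of an arm draw together toward larger distances.

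The decay was steeper in endosperm in each arm. The exponent, fitted over 0.5 to 5 Mb with both contact and distance on a log10 scale, was -0.421 in endosperm and -0.278 in leaf on the north arm, a difference of -0.143 (-0.154 to -0.132). On the south arm it was -0.434 in endosperm and -0.281 in leaf, a difference of -0.152 (-0.162 to -0.142). The 2 arms changed by amounts that could not be told apart, with a north minus south difference between the tissue changes of 0.009 (-0.006 to 0.024). In the pericentromere, fitted from 0.5 to 3 Mb, the exponent was -0.790 in endosperm and -0.874 in leaf, so decay was slightly less steep in endosperm (0.084, 0.041 to 0.127).

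The regions were thus less unlike each other in endosperm. Over 0.5 to 3 Mb, the pericentromere's exponent minus that of the north arm was -0.306 in endosperm and -0.587 in leaf, and the tissue difference of this gap was 0.281 (0.236 to 0.326). Against the south arm the gap was -0.304 in endosperm and -0.585 in leaf. The arm change depended on the distances fitted. From 1 to 10 Mb the exponents differed between tissues by -0.009 on the north arm and by -0.112 on the south arm, against -0.238 and -0.222 from 0.5 to 2 Mb.

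Bands of distance show where the excess lay. On the north arm the log2 difference was 0.57 at 0.5 to 0.7 Mb, 0.15 at 1.8 to 2.2 Mb and 0.07 at 4.2 to 6.0 Mb. The south arm had 0.56, 0.17 and 0.04 in the same bands. Beyond 8 Mb the arms parted. At 8.1 to 10.0 Mb the north arm had a level of 1.39 in endosperm and 1.24 in leaf (0.16, 0.11 to 0.22), and the south arm 1.34 in endosperm and 1.38 in leaf (-0.05, -0.08 to -0.02). The pericentromere ran the other way with distance. It was lower in endosperm at 0.5 to 0.7 Mb, with a difference of -0.08 (-0.13 to -0.04), and higher at 3.1 to 4.1 Mb, with 1.54 in endosperm and 1.202 in leaf (0.35, 0.23 to 0.48).

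**Figure D2:**
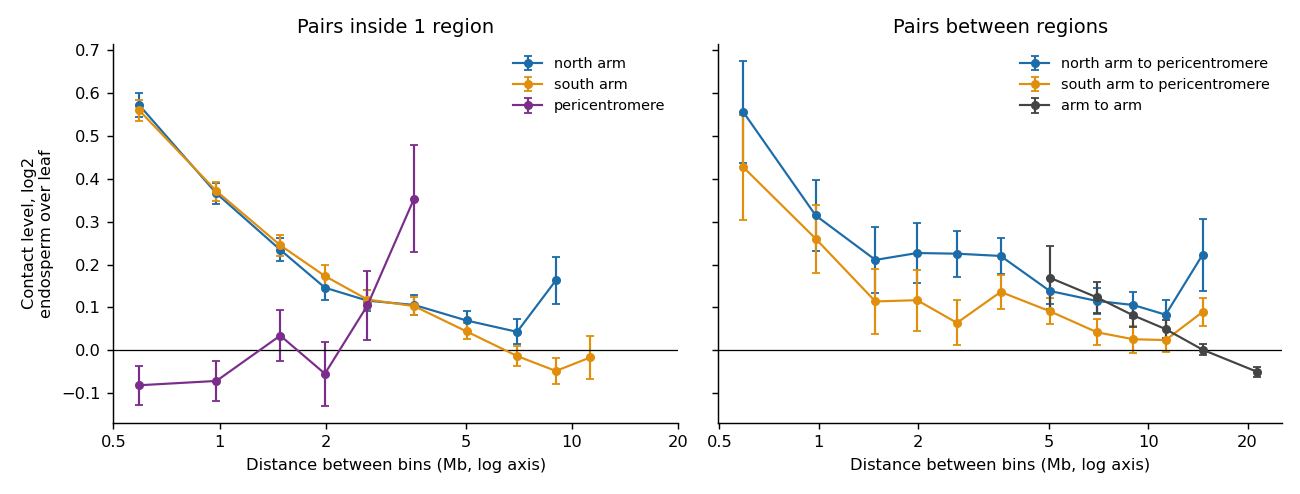
Log2 contact level of endosperm over leaf against the distance between bins (Mb, log axis), for pairs inside a region (left) and between regions (right), with 95% counting intervals. Arm pairs start at 0.57 and 0.56 and draw near 0 by 6.1 to 8.0 Mb, pericentromere pairs start at -0.08, and arm to arm pairs run down from 0.17 at 4.2 to 6.0 Mb to -0.05 at 16.9 to 26.9 Mb.

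Arms of other chromosomes were steeper in endosperm too, and those of chromosome 3 by less than those of chromosome 5. The change in exponent on its north arm minus that on the north arm of chromosome 3 was -0.075 (-0.090 to -0.060), and minus that of chromosome 1 it was -0.020 (-0.035 to -0.006). On the south arm, chromosome 5 minus chromosome 3 was -0.058 (-0.075 to -0.040). From the south arms of chromosomes 2 and 4 it differed by 0.010 (-0.003 to 0.024) and -0.011 (-0.025 to 0.002), which counting error covers. From the south arm of chromosome 1 it differed by -0.134 (-0.148 to -0.120). The matrices depart from the assembly's order there in leaf: across 22.7 Mb of chromosome 1, contact between the 1 Mb on either side was 4.46 times the interchromosomal mean in endosperm and 1.26 times in leaf, while 22 to 23 Mb of chromosome 1 met 1 to 2 Mb of chromosome 2 at 1.03 times that mean in endosperm and 3.005 times in leaf. Its part in the comparisons with chromosomes 1 and 2 was not tested. In the pericentromere, the level change at 0.5 to 1 Mb minus that on chromosome 1 was -0.38 (-0.44 to -0.32), and minus that on chromosome 4 it was 0.01 (-0.05 to 0.06).

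Contact between the arms was nearly the same in both tissues on average, but not at each distance. The 12524 pairs that join the north and south arm had a contact level of 1.17 in both tissues, with a difference of 0.00 (-0.01 to 0.01). Close to the pericentromere, at 4.2 to 6.0 Mb, the level was 1.36 in endosperm and 1.205 in leaf, a difference of 0.17 (0.10 to 0.24). At 8.1 to 10.0 Mb the difference was 0.08 (0.05 to 0.11), and at 12.7 to 16.8 Mb it was 0.00 (-0.01 to 0.02). At 16.9 to 26.9 Mb the level was 1.16 in endosperm and 1.198 in leaf, a difference of -0.05 (-0.06 to -0.04). Arm stretches on either side of the pericentromere therefore met more in endosperm, and the far stretches of the arms less.

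Distance-normalised contact between arms was 1.005 in endosperm and 1.004 in leaf, a difference of 0.001 (-0.003 to 0.005). This value has little room to move, because every pair more than 16.8 Mb apart joins the 2 arms and so averages 1 by construction. Where arm to arm pairs were set against pairs inside an arm at the same distance, they were lower in both tissues, by -0.11 in endosperm and -0.23 in leaf on the log2 scale. The gap was smaller in endosperm by 0.12 (0.08 to 0.16). On chromosome 3 this change was -0.12, and chromosome 5 exceeded it by 0.24 (0.18 to 0.30). The difference from chromosome 4 was 0.03 (-0.02 to 0.08).

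Points of the arms that lie equally far from the pericentromere were compared with other pairs. At 8.1 to 12.0 Mb, pairs whose ends lay within 1.5 Mb of like distance from the pericentromere had a level of 1.29 in endosperm and 1.201 in leaf (0.11, 0.07 to 0.14). Unlike pairs had 1.19 in endosperm and 1.15 in leaf (0.05, 0.03 to 0.07). At 20.1 to 26.9 Mb like pairs had 1.19 in endosperm and 1.24 in leaf, and unlike pairs 1.204 in endosperm and 1.26 in leaf, so like pairs were not higher there in either tissue.

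The chromosome's ends met less in endosperm. The 25 pairs between the outermost 5 bins at each end had a level of 1.89 in endosperm and 2.41 in leaf, a difference of -0.35 (-0.48 to -0.23). Contact between the outer 2 Mb of both arms was 1.31 in endosperm and 1.44 in leaf (-0.14, -0.17 to -0.10). Ends instead met the pericentromere more. The north end's level with it was 1.08 in endosperm and 0.965 in leaf (0.17, 0.10 to 0.23), and the south end's was 1.06 in endosperm and 0.95 in leaf (0.16, 0.09 to 0.23). End contact was also lower in endosperm on chromosomes 3 and 4, by -0.26 and -0.47, and from these the change on chromosome 5 differed by no more than counting error. The change on chromosome 5 minus that of chromosomes 1 and 2 was -0.33 (-0.50 to -0.15) and -0.32 (-0.51 to -0.12).

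The pericentromere was less set apart from the arms in endosperm. Its distance-normalised contact with itself was 0.854 in endosperm and 1.02 in leaf, a difference of -0.26 (-0.28 to -0.23). Its contact with the arms was 0.928 in endosperm and 0.910 in leaf, a difference of 0.03 (0.02 to 0.04). Segregation, the geometric mean of contact within the pericentromere and within arms over contact between them, was 1.02 in endosperm and 1.14 in leaf (-0.16, -0.18 to -0.15). Segregation was lower in endosperm on each of the 5 chromosomes. The change on chromosome 5 minus that on chromosome 3 was -0.06 (-0.08 to -0.04), and minus that on chromosome 4 it was 0.07 (0.04 to 0.09). Over pairs at least 1 Mb apart the pericentromere's difference with itself was -0.14 and that of segregation -0.11.

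The arms were not alike in this. With the north arm the pericentromere's contact was 0.903 in endosperm and 0.863 in leaf, a difference of 0.06 (0.05 to 0.08). With the south arm it was 0.948 in both tissues, a difference of 0.00 (-0.01 to 0.01). On the scale of contact level, however, the pericentromere met the south arm more in endosperm. The difference was 0.43 at 0.5 to 0.7 Mb, 0.09 at 4.2 to 6.0 Mb and 0.09 at 12.7 to 16.8 Mb. At 8.1 to 10.0 Mb it was 0.03 (-0.01 to 0.06). For distance-normalised contact with both arms together, the direction was turned when expected contact was taken over all 5 chromosomes, which gave -0.01. Because arm contacts set much of the chromosome average at short range, the pericentromere was also set against within-arm pairs at the same distance. There it was lower with itself in both tissues, by -0.35 in endosperm and -0.26 in leaf, and the difference was -0.09 (-0.15 to -0.04).

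The lower contact lay mostly in the inner pericentromere, at 11 to 13 Mb, a stretch chosen after the values of the 1 Mb segments were seen. Distance-normalised contact within it was 0.90 in endosperm and 1.54 in leaf, a difference of -0.77 (-0.82 to -0.73), from 106 pairs with 13172 and 11351 contacts. On the scale of contact level it was 3.59 in endosperm and 4.79 in leaf (-0.41, -0.46 to -0.37), so it was lower in endosperm on that scale too. Without the bins of high count it was 0.943 in endosperm and 1.67 in leaf. The outer pericentromere, on either side, had 0.865 with itself in endosperm and 0.848 in leaf, a difference of 0.03 (-0.03 to 0.09). The 364 pairs of the inner with the outer part had 0.836 in endosperm and 0.935 in leaf (-0.16, -0.19 to -0.13). Their contact level was instead slightly higher in endosperm, 2.57 against 2.47 in leaf (0.055, 0.02 to 0.09). Without pairs inside 11 to 13 Mb, the pericentromere's contact with itself differed by -0.11 and segregation by -0.09. The outer part's contact level was higher in endosperm, 2.62 against 2.09 in leaf (0.32, 0.26 to 0.38).

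Inner and outer pericentromere also differed in their contact with the arms. The inner part met the north arm more in endosperm, with 0.859 in endosperm and 0.796 in leaf (0.11, 0.09 to 0.13), and the south arm likewise, with 0.917 in endosperm and 0.851 in leaf (0.11, 0.09 to 0.13). The outer part met the north arm slightly more (0.945 in endosperm and 0.928 in leaf) and the south arm less, with 0.977 in endosperm and 1.04 in leaf (-0.09, -0.11 to -0.07). Contact across the middle of the pericentromere, over all its pairs at the same distance, was 1.01 in endosperm and 1.198 in leaf (-0.24, -0.27 to -0.22). The middle, at 12.2 Mb, lies in the inner part, so this is not separate from the lower contact there. Distance-normalised contact of the outer north with the outer south pericentromere, from pairs farther apart, differed by -0.01 (-0.10 to 0.07). Across the middle, chromosomes 1 to 4 differed by -0.19, -0.22, -0.30 and -0.21. From counts without balancing the difference across the middle was -0.15, and with contact expected from all 5 chromosomes it was -0.55.

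Cutting the chromosome into 1 Mb segments gave 378 segment pairs, segments with themselves included. Of these, 7 (1.85%) were higher in endosperm by 1.2-fold or more and 8 (2.12%) were lower. Over all 5 chromosomes, 5.93% of 1569 segment pairs were higher and 3.57% lower by this rule, so chromosome 5 held a smaller share of each. The share higher was 9.72% and 10.0% on chromosomes 1 and 2, which hold the departure in leaf described above, whose part here was not tested. It was 3.01% and 4.23% on chromosomes 3 and 4, where 3.01% and 3.70% were lower. Between its arms none of 130 segment pairs passed the fold, and their differences ran from -0.24 to 0.16. The counting interval lay above 0 for 98 of the 378 pairs on the chromosome and below 0 for 82. Over all 5 chromosomes it lay above 0 for 429 of 1569 pairs and below 0 for 394. From counts without balancing, 9 segment pairs were higher and 15 lower.

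**Figure D3:**
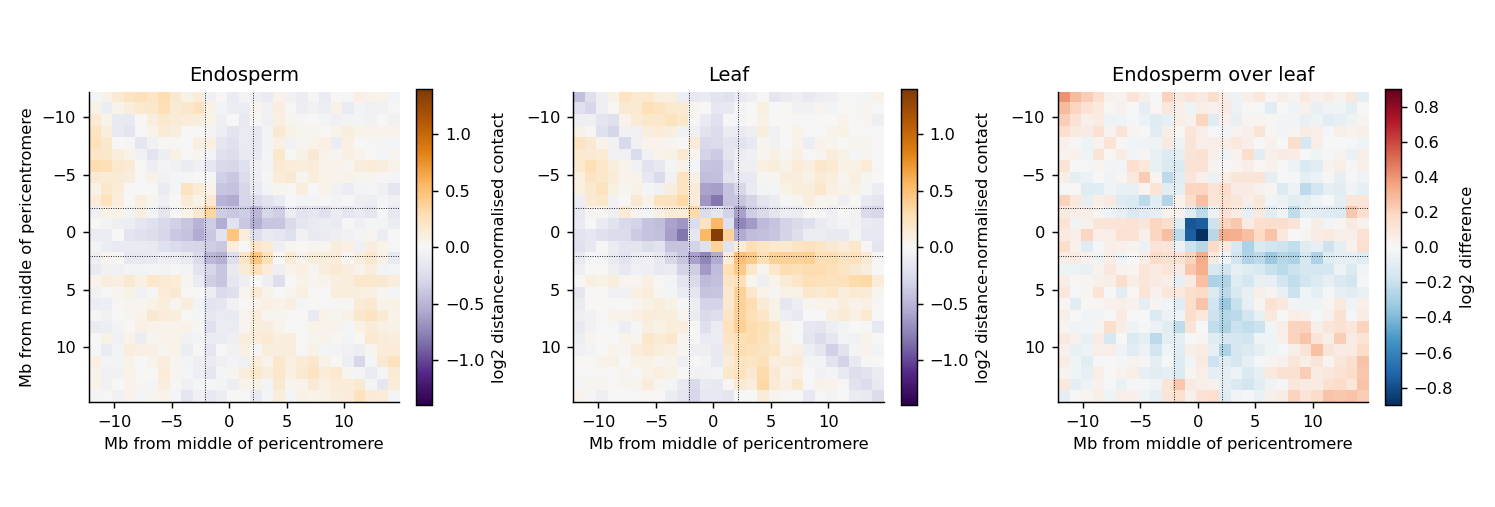
Distance-normalised contact (log2) between 1 Mb segments of chromosome 5 in endosperm (left) and leaf (middle), and the log2 difference of endosperm over leaf (right). Axes give Mb from the middle of the pericentromere, and dotted lines mark its limits. The segment pairs inside 11 to 13 Mb carry the deepest blue, down to -0.90, and a blue stripe joins the south arm beside the pericentromere with the rest of that arm.

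Of the 8 lower segment pairs, 3 lay inside 11 to 13 Mb. The segment at 12 to 13 Mb had a distance-normalised contact with itself of 1.38 in endosperm and 2.57 in leaf (-0.90, -1.001 to -0.79). The segment at 11 to 12 Mb had 0.688 with itself in endosperm and 1.17 in leaf (-0.77, -0.89 to -0.65), and the 2 segments had 0.874 with each other in endosperm and 1.46 in leaf (-0.74, -0.80 to -0.69). They are the poorest in genes on the chromosome, with a protein-coding cover of 2.21% at 11 to 12 Mb and 5.14% at 12 to 13 Mb. On chromosomes 1 to 4 the lowest pair of pericentromeric segments differed by -0.86, -1.203, -0.88 and -0.75. Each is the minimum of several pairs, so its sign alone says little. The median over all pairs of pericentromeric segments was -0.31, -0.18, -0.12 and -0.14 there, and -0.21 on chromosome 5. Some such pairs were higher by 1.2-fold or more on chromosome 2 (1 of 15) and chromosome 4 (2 of 6).

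The other 5 lower segment pairs joined 13 to 15 Mb with the south arm. The segment at 14 to 15 Mb had a contact with that at 18 to 19 Mb of 1.03 in endosperm and 1.302 in leaf (-0.33, -0.41 to -0.26). The segment at 13 to 14 Mb had 0.95 with that at 16 to 17 Mb in endosperm and 1.16 in leaf (-0.28, -0.35 to -0.21). Of the 11 pairs of the segment at 14 to 15 Mb with segments from 16 Mb to the south end, 11 were lower in endosperm, 9 of them with an interval under 0. In leaf the gene-poorer stretch of the south arm beside the pericentromere thus formed a block with the arm beyond it that was weaker in endosperm.

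Taken as arm bins within 2 Mb of the pericentromere, again chosen after the segment values were seen, this stretch met the rest of the south arm with 1.05 in endosperm and 1.16 in leaf (-0.15, -0.17 to -0.14). Its counterpart on the north arm met the rest of that arm with 1.04 in endosperm and 1.06 in leaf (-0.03, -0.05 to -0.02). The change on the south arm minus that on the north arm was -0.12 (-0.14 to -0.09). It differed from those on the south arms of chromosomes 2 and 4 by -0.01 in each case, with intervals that include 0. It was larger than the change on chromosome 3, by -0.11 on each arm (-0.13 to -0.09 on the north arm and -0.13 to -0.08 on the south arm), and smaller than that on the north arm of chromosome 1, by 0.03 (0.00 to 0.05). From the south arm of chromosome 1, where contact was higher in endosperm, it differed by -0.25 (-0.27 to -0.22). The north and south stretches met each other more in endosperm, with 0.907 in endosperm and 0.850 in leaf (0.09, 0.05 to 0.14).

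Of the 7 higher segment pairs, 4 joined the segment at 12 to 13 Mb with arm segments. Its contact with 14 to 15 Mb was 0.856 in endosperm and 0.681 in leaf (0.33, 0.24 to 0.42), with 15 to 16 Mb 0.913 in endosperm and 0.730 in leaf (0.32, 0.24 to 0.41), and with 9 to 10 Mb 0.683 in endosperm and 0.567 in leaf (0.27, 0.18 to 0.36). The segment whose contact with itself was lowest relative to leaf was thus among the highest in its contact with arm segments on both sides. Balancing gives every bin of a tissue nearly the same total, so less contact inside a segment comes with more elsewhere. The rise is therefore not an observation apart from the fall. A further 2 lay in the first 2 Mb of the north arm. The terminal segment had 0.981 with itself in endosperm and 0.741 in leaf (0.41, 0.28 to 0.53), and 1.05 with the next segment in endosperm and 0.864 in leaf (0.29, 0.23 to 0.34).

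Contact inside segments, from pairs 0.5 to 0.9 Mb apart, was more even along the arms in endosperm. Over 23 arm segments it ranged from 0.820 to 1.37 in endosperm and from 0.741 to 1.41 in leaf. It was higher in endosperm in 18 of the 23, with an interval above 0 in 12, and the median difference was 0.12. These counts are for chromosome 5 only and are not set against the arms of other chromosomes. The chromosome's average takes in the pericentromere, which in leaf stood well above the arms at this range. Arm segments therefore lie lower in leaf on this scale by construction, and the excess is not separate from the pericentromere's value. Over all 27 segments, 2 (7.41%) were higher by 1.2-fold or more and 2 (7.41%) lower, where 10.3% of 116 segments were higher and 9.48% lower over all 5 chromosomes. After the terminal segment, the largest differences upward were 0.27 at 22 to 23 Mb, 0.26 at 21 to 22 Mb, 0.23 at 7 to 8 Mb and 0.22 at 26 to 27 Mb. Downward, after the inner pericentromere, they were -0.26 at 9 to 10 Mb, -0.15 at 16 to 17 Mb and -0.07 at 15 to 16 Mb.

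Arm segments richer in genes had less contact inside them in both tissues. Across the 23 arm segments the correlation with gene cover was r = -0.82 in endosperm and r = -0.89 in leaf. Across all 27 segments it was r = -0.43 in endosperm and r = -0.70 in leaf. Segments are parts of 1 map and share its balancing, so these values are descriptions.

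**Figure D4:**
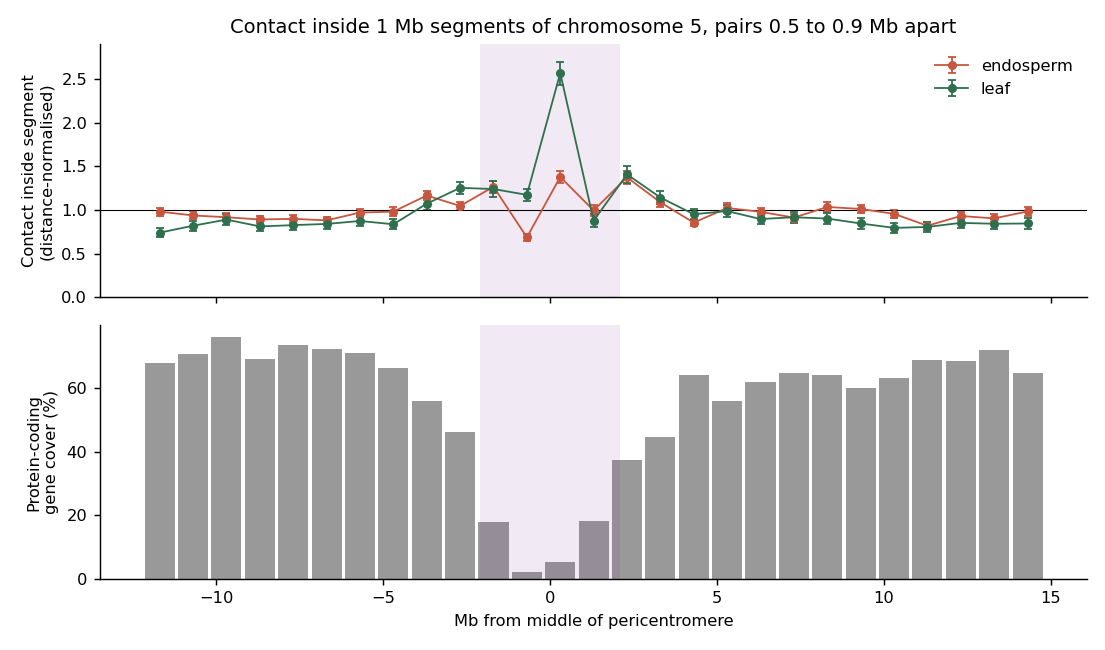
Top, distance-normalised contact inside each 1 Mb segment of chromosome 5 in endosperm and leaf, with 95% counting intervals. Bottom, protein-coding gene cover (%) of the segments. Positions are Mb from the middle of the pericentromere, which is shaded, and the 12 to 13 Mb segment stands at 1.38 in endosperm and 2.57 in leaf.

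Borders between blocks were sought as local minima under 0.9 of the contact between the 1 Mb before and the 1 Mb after each bin border. This contact is distance-normalised, and its average of 1 takes in the pericentromere, which in leaf stood above the arms at 0.5 to 1 Mb. A fixed limit therefore does not treat the tissues alike, and the number of borders depends on it. A limit of 0.95 gave 6 borders in endosperm and 10 in leaf. Under 0.9, endosperm had 1, at 11.3 Mb in the pericentromere, where contact across it was 0.742 in endosperm and 0.988 in leaf. Leaf had 7. The deepest, in the pericentromere, lay at 13.6 Mb (0.961 in endosperm and 0.793 in leaf) and at 10.9 Mb (0.825 in endosperm and 0.837 in leaf). The other 5 lay in the arms, at 23.5 Mb (0.938 in endosperm and 0.838 in leaf), 2.9 Mb (0.927 in endosperm and 0.864 in leaf), 21.3 Mb (1.01 in endosperm and 0.868 in leaf), 25 Mb (0.983 in endosperm and 0.875 in leaf) and 7.3 Mb (0.956 in endosperm and 0.884 in leaf). No border of one tissue lay within 0.2 Mb of a border of the other. With only 1 border in endosperm this comparison could hardly find a shared one, so it does not show that the borders differ.

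The profile along the arms was flatter in endosperm. Over 208 arm positions it ran from 0.915 to 1.295 in endosperm, with an SD along the arm of 0.068, and from 0.838 to 1.38 in leaf, with an SD of 0.119. The tissues nevertheless had high and low stretches in much the same places, with a correlation of r = 0.78 over these positions, whose windows overlap. Each window reaches 1 Mb to either side, so at arm positions beside the pericentromere it takes in pericentromeric bins. The highest value of each tissue lay there, at 14.5 Mb. How far such positions set the ranges, the SDs and r was not tested. On the map without balancing, endosperm had 4 borders and leaf 7.

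**Figure D5:**
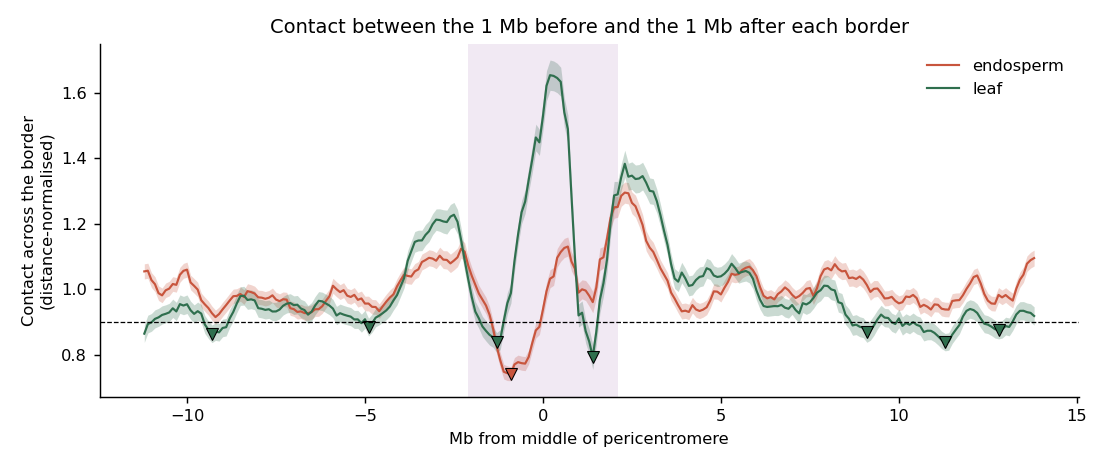
Distance-normalised contact between the 1 Mb before and the 1 Mb after each bin border along chromosome 5, in endosperm and leaf, with 95% counting intervals as bands. Triangles mark borders, the dashed line the limit of 0.9, and the shaded span the pericentromere. The endosperm line keeps between 0.915 and 1.295 over the arms and the leaf line between 0.838 and 1.38.

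Genes of 5 lists served as landmarks for the arm segments, and all 24 were found in the gene table, in 14 segments. The values below are those of contact inside the 1 Mb segment, not of the gene, and genes that share a segment share its value. Among 23 arm segments the median difference was 0.12, beside which the lists are read. None of the listed genes lay in the pericentromere.

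Of 3 genes that are expressed from the maternal copy in endosperm, FH5, a formin of the actin cytoskeleton, lay at 22.1 to 22.2 Mb in a segment with 0.957 in endosperm and 0.796 in leaf (0.27, 0.14 to 0.39). AGL36, a type I MADS-box factor, lay at 9.3 to 9.4 Mb in the segment with the largest difference downward in the arms, 1.05 in endosperm and 1.25 in leaf (-0.26, -0.37 to -0.15). HDG9, a homeodomain factor, lay in a segment with 0.882 in endosperm and 0.841 in leaf (0.07, -0.05 to 0.19). The list's median was 0.07.

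The 6 endosperm regulators had a median of 0.02 over 5 segments, none of them past 1.2-fold, where 2 of all 23 arm segments (8.70%) were higher by that fold and none lower. DME, the glycosylase that removes methylated cytosine in the central cell, lay in a segment with 0.938 in endosperm and 0.820 in leaf (0.19, 0.07 to 0.32). AGL62, which delays cellularisation of the endosperm, lay in one with 0.932 in endosperm and 0.853 in leaf (0.13, 0.01 to 0.25). MSI1, a Polycomb subunit, had 0.820 in endosperm and 0.806 in leaf (0.02, -0.11 to 0.16). AGL80, a factor of the central cell, and MET1, the maintenance DNA methyltransferase, shared a segment with 0.913 in endosperm and 0.917 in leaf (-0.01, -0.13 to 0.11). AGL90, another type I MADS-box factor, shared the segment of AGL36.

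Photosynthesis genes had the highest median of the lists, 0.24 over 4 segments, of which 2 were past 1.2-fold. These were the same 2 arm segments as in the count over all 23 (8.70%), the terminal one and the one at 22 to 23 Mb. LHCB4.1, of the light-harvesting antenna, lay in the terminal segment of the north arm, described above. LHCB3, another antenna protein, shared the segment of FH5. PSBO1, of the oxygen-evolving complex, and FNR1, which passes electrons on to NADP, shared a segment with 0.984 in endosperm and 0.846 in leaf (0.22, 0.09 to 0.34). The Rubisco small-subunit genes RBCS1B, RBCS2B and RBCS3B lay in 1 bin of a segment with 1.09 in endosperm and 1.14 in leaf (-0.07, -0.19 to 0.05).

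The 3 seed storage genes fell in 3 segments with a median of 0.05. SESA5, a seed albumin, shared the segment of FH5. CRA1, a cruciferin, lay in a segment with 1.02 in endosperm and 0.988 in leaf (0.05, -0.07 to 0.17), and OLEO2, an oil-body oleosin, in one with 0.856 in endosperm and 0.952 in leaf (-0.15, -0.27 to -0.04). FLC, the repressor of flowering, lay in a segment with 0.892 in endosperm and 0.812 in leaf (0.13, 0.01 to 0.26). Its relatives MAF2, MAF3, MAF4 and MAF5 lay in 1 bin near the south end, in a segment with 0.904 in endosperm and 0.843 in leaf (0.10, -0.02 to 0.23).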

How the data were processed

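The authors deposited 1 matrix per tissue at 100 kb and 1 at 200 kb, of contact signal after iterative correction (named in the matrices' titles), from replicates 1 and 2 together. Per the submitters' processing notes, reads went through HiC-Pro 2.9.0 and Bowtie2 against TAIR10. The sources used here name no enzyme, read filter or balancing setting. Balancing evens out coverage, copy number included, so values of repeat bins depend on it.

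Whole counts were recovered from the deposited signal as count times 1 factor per bin. All values came out whole within 0.01, giving 25033672 contacts in endosperm and 18557893 in leaf. Intervals are 1.96 SDs of weighted Poisson sums with the factors kept. With 1 pooled matrix per tissue there was no test and no p-value.

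Bins lacking signal in either tissue were left out. Gene positions came from the TAIR10.1 gene table. Regions named were the 5 segment pairs and 5 segments with the largest difference each way, the 5 deepest borders per tissue, and all listed genes. The other 2 borders of leaf, the inner pericentromere and the arm stretches beside it were named after their values were seen. The members and lists were chosen with earlier results of these data known. Alternatives were counts without balancing, repeat bins left out, 200 kb bins, other distances, scalings and folds. Measures were tested on simulated data. Python 3.11.15, numpy 2.4.6 and pandas 2.3.3 were used.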

Additional observations from a re-analysis of the deposited data

How the results depend on the processing

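No paired analysis was possible because the deposited matrices pool the replicates of each tissue. Of 65 recomputed differences for 13 measures, 61 kept their direction and 33 stayed inside the counting interval. The 4 that turned were arm to arm contact without balancing, with 5 chromosomes' expectation and with 200 kb bins (-0.00046), whose main value of 0.001 had an interval that includes 0, and the pericentromere with arms with 5 chromosomes' expectation. The cause of a shift was not tested, except where fewer pairs or another range of distances entered by construction. The alternatives that set arm to arm contact, the pericentromere or its contact with the arms against within-arm pairs, that left out 11 to 13 Mb or moved the middle, and those on borders were chosen after seeing the data.

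From counts without balancing, the log2 difference of endosperm over leaf was -0.010 for arm to arm contact, -0.15 across the middle of the pericentromere, -0.0085 and 0.46 for the level at 0.5 to 1 Mb in the pericentromere and south arm, -0.55 for the inner pericentromere, 0.049 for the pericentromere with arms and -0.20 with itself, and 24 segment pairs passed 1.2-fold. With 200 kb bins it was -0.21 across the middle, 0.47, 0.46 and -0.13 for the level in the north arm, south arm and pericentromere, -0.70 for the inner pericentromere, -0.20 for segregation and -0.32 for the pericentromere with itself. Divided by the bin total, the level differed by 0.45, 0.44 and -0.14 in the north arm, south arm and pericentromere. With contact expected from 5 chromosomes, it was -0.025 for arm to arm contact, -0.55 across the middle and -0.012 for the pericentromere with arms. Fits over 0.5 to 2 Mb gave an exponent difference of -0.238 on the north and -0.222 on the south arm, and fits over 1 to 10 Mb gave -0.0085 and -0.112.

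Against within-arm pairs the difference was 0.12 for arm to arm contact, 0.060 for the pericentromere with arms and -0.093 with itself. Over pairs at least 1 Mb apart, segregation was -0.11 and the pericentromere with itself -0.14. Without pairs inside 11 to 13 Mb they were -0.087 and -0.11, and without repeat bins the inner pericentromere was -0.82. A fold of 1.1 gave 85 segment pairs and a fold of 1.5 gave 3. A limit of 0.95 gave 16 borders, 6 in endosperm and 10 in leaf.

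Depth limits single bins more than regions: a median of 31 contacts per pair in endosperm and 23 in leaf cannot resolve 1 pair of bins, and the end to end value rests on 25 pairs. Pooled replicates add spread that the intervals do not hold.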
